A study of Mus musculus with 24 samples.

Results

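Clones of a mouse acute myeloid leukaemia line carrying the hairpin shOgdh346 were compared with clones carrying shOgdh2081, both directed against Ogdh, on day 4 of hairpin induction. The members are 8 of the 24 libraries of the series, 4 per hairpin, taken from the sample labels by hairpin and day. They come from 4 of its 6 clones, with 2 libraries for each clone. Clones 1 and 5 carried shOgdh346, and clones 3 and 5 carried shOgdh2081, where a shared clone number links nothing across hairpins. All clones are RN2 cells with the genotype Mll-Af9; NrasG12D, each holding a retroviral vector whose short hairpin RNA is switched on by doxycycline. Day 4 libraries had received doxycycline and day 0 libraries had not. The control hairpin shRen713, in clones 2 and 7, shares the genotype, the vector system and the doxycycline. Each clone is a clonal isolate, so a hairpin rests on n = 2 clones.

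OGDH is the 2-oxoglutarate-binding subunit of the 2-oxoglutarate dehydrogenase complex, which turns 2-oxoglutarate into succinyl-CoA in the tricarboxylic acid (TCA) cycle together with DLST and DLD. A short hairpin RNA is cut into a small RNA that guides Argonaute to a matching transcript. Hairpins of different sequence share the intended target but not their partly matching transcripts. Cells of Mll-Af9 leukaemia resemble granulocyte-monocyte progenitors and can mature towards neutrophils or monocytes.

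The labelled cell type was checked against its markers at day 4, in CPM, counts scaled to the size of each library. The 10 granulocyte-monocyte progenitor markers summed to 3492 to 3811 CPM in the shOgdh346 libraries, 4323 to 7875 CPM in the shOgdh2081 libraries and 10688 to 12030 CPM in the control libraries. The 11 T and NK cell markers summed to at most 7.13 CPM in any day 4 library, with Cd3e, Cd2 and Ncr1 at 0, and the 10 erythroid markers to at most 3.26 CPM. The 10 B cell markers summed to 12.5 to 62.7 CPM with shOgdh346, 7.45 to 12.5 CPM with shOgdh2081 and 128 to 175 CPM in the control, with Ms4a1 at 0. The 10 megakaryocyte markers summed to 34.7 to 61.2 CPM with shOgdh346, 51 to 84.6 CPM with shOgdh2081 and 4.21 to 10.1 CPM in the control. The sums of mast cell, basophil and eosinophil markers (117 to 194 CPM with shOgdh346, 175 to 208 CPM with shOgdh2081), dendritic cell markers (160 to 195 CPM with shOgdh346, 179 to 236 CPM with shOgdh2081) and endothelial markers (247 to 411 CPM with shOgdh346, 330 to 380 CPM with shOgdh2081) overlapped between the hairpins, as did those of fibroblast markers (25.1 to 30.6 CPM with shOgdh346, 10.8 to 74.9 CPM with shOgdh2081). Total counts ran from 8232763 to 15660295 with shOgdh346, from 7209186 to 20705468 with shOgdh2081 and from 8394101 to 9612783 in the control. The share of the 10 top genes was 6.27% to 8.98% of all counts with shOgdh346, 4.40% to 6.68% with shOgdh2081 and 3.63% to 4.18% in the control.

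Ogdh itself (ENSMUSG00000020456, GRCm38 chromosome 11, 6291633 to 6356642, plus strand) was low with both hairpins. Its level was 35.1 and 34.5 CPM in clone 1 and 54.8 and 57.8 CPM in clone 5 of shOgdh346, against 69.8 and 70.4 CPM in clone 3 and 32.7 and 38.3 CPM in clone 5 of shOgdh2081. The 4 control libraries held 204 to 253 CPM. The libraries of the Ogdh hairpins overlapped, and the lowest clone of each hairpin lay at a similar level. Ogdh fell below the control by 2.31 with shOgdh346 (adjusted p = 0.0199) and by 2.11 with shOgdh2081 (adjusted p = 0.0345), on the log2 scale in edgeR's quasi-likelihood test. Between the hairpins the log2 difference was -0.20 ± 0.37 (SE), with a 95% confidence interval of -1.13 to 0.73 and an adjusted p of 0.914. With a two-sided exact permutation test on 4 clones, p was 0.667, and the smallest p that 2 clones against 2 allow is 0.333. The sign of the difference depended on single clones, at 0.09 without clone 1 of shOgdh346 and 0.34 without clone 3 of shOgdh2081.

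None of the 8 tested genes of the complex and its lipoylation, and none of the 25 TCA cycle genes, passed the adjusted threshold of 0.05 or an unadjusted p of 0.05 in edgeR, and DESeq2 and voom called 0 of them. Across all 13747 genes tested, 4.22% were higher and 3.07% lower with shOgdh346 at that unadjusted p. Dlst, the succinyltransferase subunit, averaged 341 CPM with shOgdh346 and 407 CPM with shOgdh2081, a log2 difference of -0.20. Sucla2, a subunit of succinyl-CoA ligase, had the smallest p of the cycle at a log2 difference of -0.28. The median of the 25 genes was -0.04, beside -0.01 over all genes. Against the control, 10 TCA cycle genes fell with shOgdh346 and 7 fell with shOgdh2081, and none rose. Of all genes tested, 11.3% were higher and 11.5% lower than the control with shOgdh346, and 7.04% higher and 6.78% lower with shOgdh2081, and both comparisons use the same control clones.

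Across the transcriptome 0 genes were higher and 0 were lower (0%) with shOgdh346 at an adjusted p under 0.05 in edgeR's quasi-likelihood test on clone sums, and the smallest adjusted p was 0.672. At an unadjusted p under 0.05 there were 580 higher and 422 lower genes. DESeq2 on the same sums called 96 higher and 56 lower genes. A limma voom fit on libraries with the clone as a random effect called 125 higher and 61 lower. DESeq2 and voom shared 95 genes, and in all 95 the libraries of the hairpins did not overlap. Over all genes 8.22% had libraries all above and 8.33% all below. Both tools used the same libraries, so the separation of the 95 genes is no further support. Without the filter on low counts edgeR called 16 higher and 11 lower genes.

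The median log2 difference between the hairpins was 0.19 in size, and the median 95% confidence interval reached 0.52 on either side. For 8479 genes (61.7%) the interval lay within a 2-fold difference in both directions. Clones of 1 hairpin differed from each other about as far as clones of different hairpins. The median absolute log2 difference at day 4 was 0.21 between the shOgdh346 clones and 0.26 between the shOgdh2081 clones. The 4 pairs across hairpins lay between 0.23 and 0.26, and 9.14% to 10.8% of genes differed by over 2-fold in them, against 8.61% within shOgdh346 and 10.2% within shOgdh2081. Pairs of an Ogdh-hairpin clone with a control clone lay between 0.40 and 0.51. Of the sum of squares over the 8 libraries, 33.2% lay between hairpins, 54.6% between clones of a hairpin and 12.2% between libraries of a clone, on 1, 2 and 4 degrees of freedom. The mean square per gene was 0.565 between hairpins, 0.466 between clones of a hairpin and 0.052 between libraries of a clone.

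**Figure D1:**
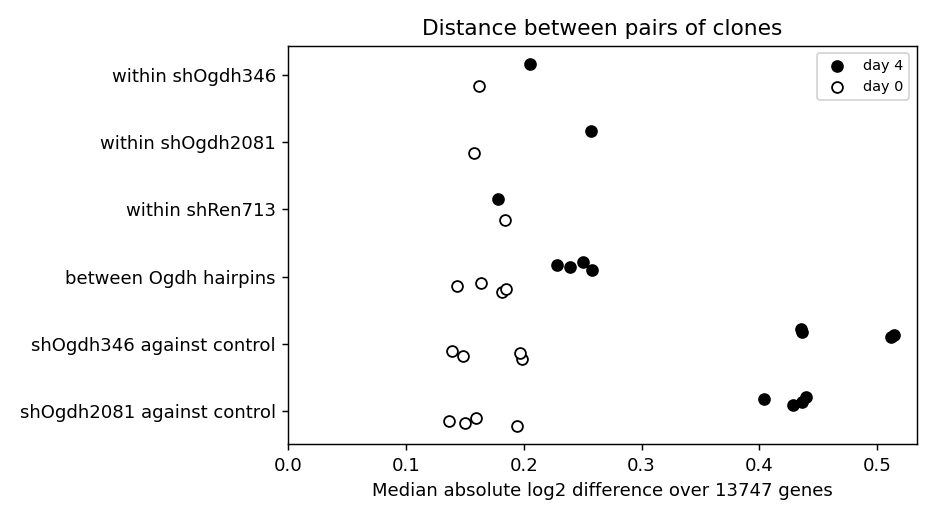
Each point is a pair of clones, placed by the median absolute log2 difference over 13747 genes, filled at day 4 and open at day 0. At day 4 the 4 pairs across the Ogdh hairpins lie between 0.23 and 0.26, beside 0.21 within shOgdh346 and 0.26 within shOgdh2081, and pairs with a control clone lie at 0.40 or above.

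A principal component analysis of the 8 libraries kept the libraries of each clone together and set all 4 clones apart. The first component (37.2% of the variance) gave the shOgdh346 libraries scores of 19.6 to 34.3. Clone 3 of shOgdh2081 stood at -0.99 and -0.91, and clone 5 of shOgdh2081 at -53.6 and -52.5. The hairpins did not overlap on that axis, but clone 3 of shOgdh2081 lay nearer to the shOgdh346 libraries than to clone 5 of its own hairpin.

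**Figure D2:**
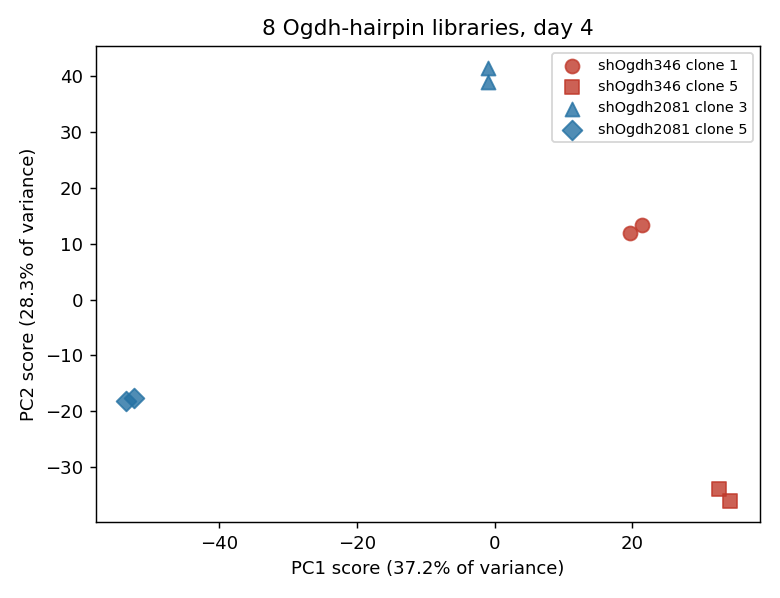
Scores of the 8 libraries on the first 2 principal components of log2 CPM, coloured by hairpin with a symbol for each clone. The libraries of a clone lie together, and on the horizontal axis the shOgdh346 libraries (19.6 to 34.3) lie nearer to clone 3 of shOgdh2081 (-0.99 and -0.91) than clone 5 of shOgdh2081 (-53.6 and -52.5) does.

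Genes of smallest p that were higher with shOgdh346 included a complement regulator, a leukocyte cytoskeletal gene and a secreted macrophage protein. They were chosen among genes whose libraries did not overlap between the Ogdh hairpins, so that separation is not a result. Sept5, a filament-forming septin, measured 168, 177, 166 and 164 CPM with shOgdh346 and 96.7, 98.6, 83.1 and 81.8 CPM with shOgdh2081. Every shOgdh346 library was above every shOgdh2081 library, and the control libraries were lower still at 34.2 to 43.3 CPM. The log2 difference was 0.94 ± 0.10 (SE), with an adjusted p of 0.672 in edgeR and 2.1e-08 in DESeq2. Cfp, which encodes properdin, the stabiliser of the alternative complement convertase, measured 359, 371, 407 and 383 CPM with shOgdh346 and 186, 176, 172 and 158 CPM with shOgdh2081. The control libraries, at 229 to 308 CPM, lay between the hairpins. Its log2 difference was 1.16 ± 0.15 (adjusted p = 0.672 in edgeR and 3.9e-08 in DESeq2).

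Fmo5, a flavin-containing monooxygenase, measured 92.4, 87.8, 85.6 and 81.9 CPM with shOgdh346 and 39.1, 42.4, 48.01 and 44.7 CPM with shOgdh2081. The groups did not overlap and differed by 1.02 ± 0.14 on the log2 scale. Rogdi measured 76.3 to 89.6 CPM with shOgdh346 and 39.4 to 48.5 CPM with shOgdh2081, and the control libraries (42.7 to 52.8 CPM) lay near those of shOgdh2081. Lsp1, an actin-binding protein of leukocytes, measured 66.97, 66.8, 60.2 and 53.2 CPM with shOgdh346 and 8.80, 8.85, 11.7 and 11.5 CPM with shOgdh2081, a log2 difference of 2.63 ± 0.35. The groups stood apart for both genes, as the choice of the genes named here required. Wfdc17, a whey acidic protein family member secreted by macrophages, measured 13.5 and 11.96 CPM in clone 1 and 26.6 and 26.6 CPM in clone 5 of shOgdh346. Its shOgdh2081 libraries held 0.941 to 2.12 CPM and its control libraries 1.597 to 2.50 CPM, so the shOgdh346 libraries lay above both. In DESeq2 the adjusted p was 2.4e-06 for Fmo5, 1.7e-05 for Rogdi, 3.2e-09 for Lsp1 and 2.6e-08 for Wfdc17, and edgeR gave 0.672 for each of them.

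On the lower side the genes named by the same rule, which again required no overlap of libraries, included a pair of serine protease inhibitors and a granule protease. Zbtb16, the transcription factor PLZF, measured 4.88, 4.70, 6.003 and 6.01 CPM with shOgdh346 and 17.1, 15.6, 20.71 and 18.5 CPM with shOgdh2081. The groups did not overlap, and the control libraries (10.1 to 11.7 CPM) lay between them. Its log2 difference was -1.73 ± 0.21 (adjusted p = 0.672 in edgeR and 8.3e-08 in DESeq2). Serpinb2, plasminogen activator inhibitor 2, measured 5.53, 4.44, 2.001 and 1.97 CPM with shOgdh346 and 216, 193, 94.5 and 76.8 CPM with shOgdh2081. The control libraries held at most 0.209 CPM, and Serpinb2 rose above the control with shOgdh346 (adjusted p = 0.0389) and with shOgdh2081 (adjusted p = 0.0212) in edgeR. The log2 difference between the hairpins was -5.40 ± 0.73, with an adjusted p of 0.672 in edgeR and 0.000499 in DESeq2.

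Serpine2, an inhibitor of thrombin and plasminogen activators, measured 25.1 to 29.6 CPM with shOgdh346 and 57.6 to 67.6 CPM with shOgdh2081, a log2 difference of -1.22 ± 0.17. Ctsg, the granule protease cathepsin G, measured 561, 536, 724 and 636 CPM with shOgdh346 and 1472, 1357, 1118 and 1054 CPM with shOgdh2081. Ctsg was below the 2301 to 2511 CPM of the control in all 8 libraries, and it fell below the control with shOgdh346 (adjusted p = 0.0106) and with shOgdh2081 (adjusted p = 0.0331) in edgeR. Fkbp11, a peptidyl-prolyl isomerase of the secretory pathway, measured 6.92 to 8.63 CPM with shOgdh346 and 12.9 to 21.7 CPM with shOgdh2081. Capn3, a calcium-dependent protease, measured 0.900 to 1.73 CPM with shOgdh346 and 7.61 to 9.39 CPM with shOgdh2081. For these 4 genes the groups did not overlap, as the choice of genes required, and edgeR's adjusted p was 0.672. DESeq2 gave 4.3e-06 for Serpine2, 3.8e-05 for Ctsg, 0.00130 for Fkbp11 and 0.000794 for Capn3.

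**Figure D3:**
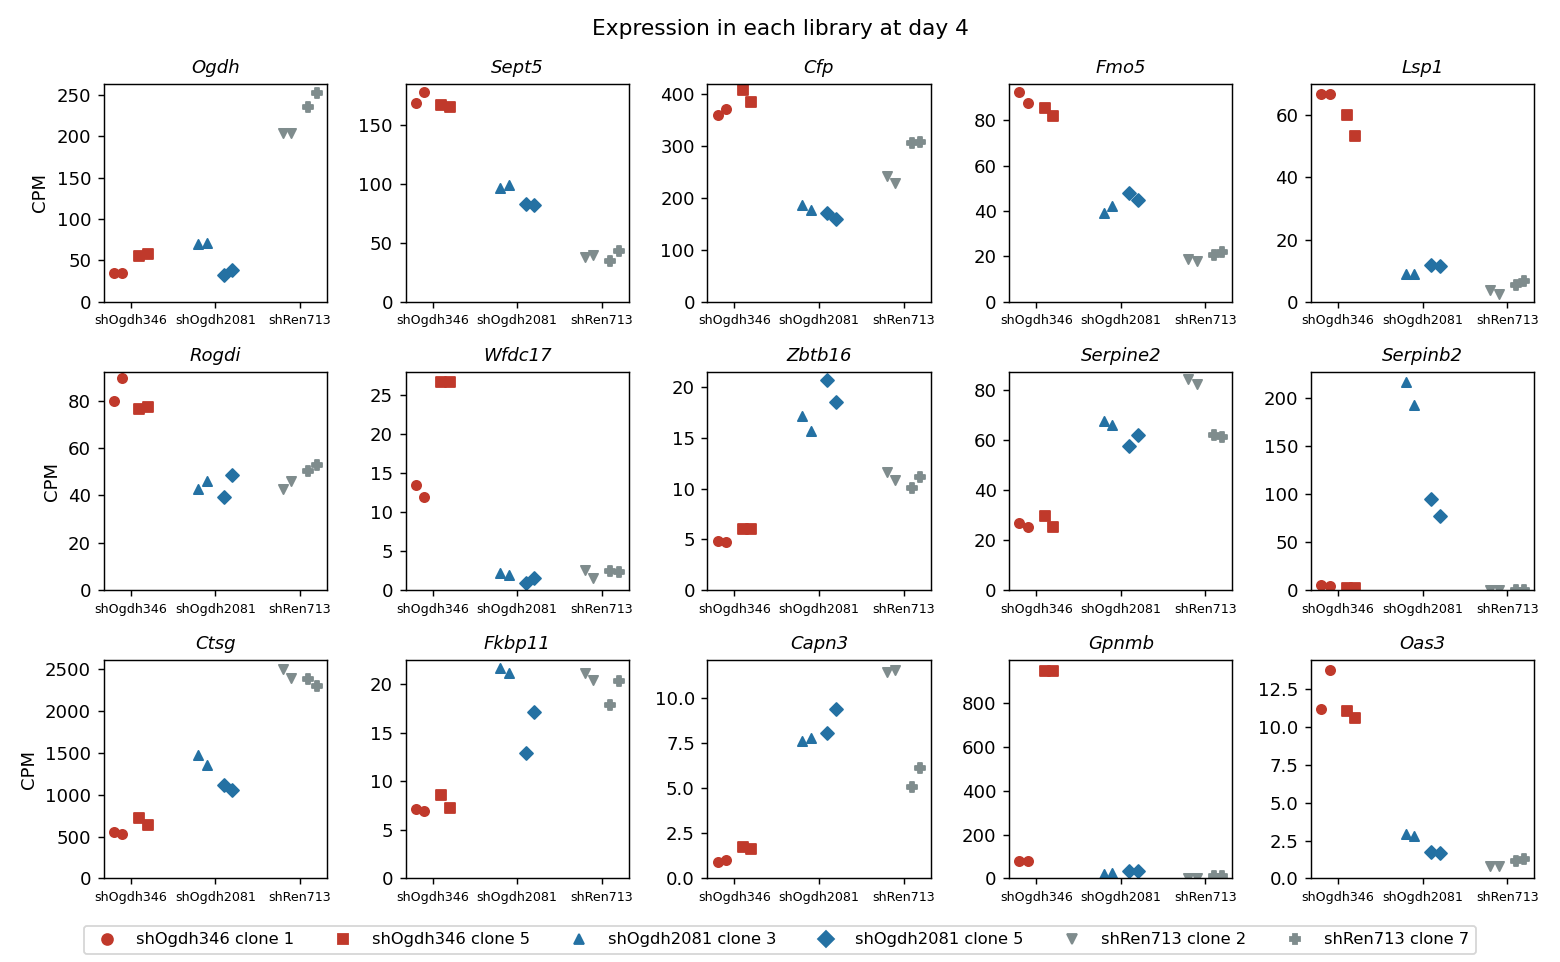
CPM of each day 4 library for Ogdh, the 12 genes named at day 4, Gpnmb and Oas3. shOgdh346 is on the left, shOgdh2081 in the middle and the control shRen713 on the right, with a symbol for each clone. Ogdh overlaps between the Ogdh hairpins (34.5 to 57.8 CPM against 32.7 to 70.4 CPM). The other 14 genes do not, which the choice of the 12 required, and Gpnmb reaches 949 CPM in clone 5 of shOgdh346.

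The day 0 libraries show which differences the clones carried before doxycycline. Across 13125 genes tested at day 0, 0 were higher and 0 lower with shOgdh346 (0%) in edgeR, 358 (2.73%) and 348 (2.65%) had an unadjusted p under 0.05, and DESeq2 called 43 and 44. Over 9750 genes with a mean above 5 CPM in the clone sums of both days, the mean difference between the hairpins at day 4 had a Pearson r of 0.732 with that at day 0, as a description across genes that share their clones. The same r was 0.708 for clone 1 minus clone 5 of shOgdh346 and 0.779 for clone 3 minus clone 5 of shOgdh2081. Of 281 genes that differed by over 2-fold at day 4, 160 (56.9%) did so the same way at day 0, beside 161 of 352 (45.7%) between the clones of shOgdh346 and 184 of 431 (42.7%) between those of shOgdh2081. Lsp1 had clone levels of 72.4 and 26.4 CPM for shOgdh346 and 5.64 and 10.4 CPM for shOgdh2081 at day 0, a log2 difference of 2.61. Serpine2 had 14.96 and 7.89 CPM in the shOgdh346 clones and 46.2 and 30.8 CPM in the shOgdh2081 clones at day 0. Lsp1 and Serpine2 thus stood apart before induction. Sept5, Fmo5, Wfdc17 and Zbtb16 had day 0 log2 differences of -0.27, -0.07, 0.03 and 0.27. Values for Cfp, Rogdi, Serpinb2, Ctsg, Fkbp11 and Capn3 are not printed here, so no day 0 statement is made for these genes.

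**Figure D4:**
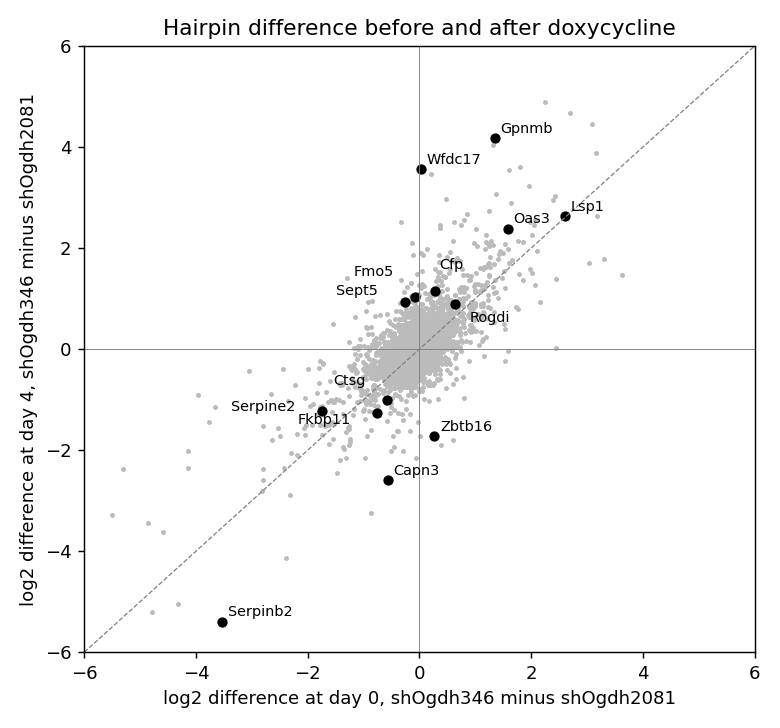
Each grey point is 1 of 9813 genes with a day 4 mean above 5 CPM over the Ogdh hairpins and a test at day 0, placed by its fitted log2 difference, shOgdh346 minus shOgdh2081, at day 0 and at day 4, with 11 genes outside the axes and named genes in black. Lsp1 lies on the dashed line of equal differences (2.63 at day 4 and 2.61 at day 0), whereas Wfdc17 (3.56 and 0.03) and Zbtb16 (-1.73 and 0.27) lie far from it.

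The difference in change sets the day 4 minus day 0 change of shOgdh346 against that of shOgdh2081 within clones. Of 14249 genes, 8 had a higher change (0.0561%) and 7 a lower one (0.0491%) at an adjusted p under 0.05 in edgeR's quasi-likelihood test. The count depended on single clones and libraries, at 41 and 18 without clone 5 of shOgdh346 and 1 and 1 without replicate 1 of clone 3 of shOgdh2081 at day 0. The higher count was 31 without clone 1 of shOgdh346, 18 without clone 3 and 3 without clone 5 of shOgdh2081, and the lower count was 3 without either control clone. DESeq2 called 75 and 26, and edgeR without the clone as a block called 0 and 0.

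Gpnmb, a transmembrane glycoprotein of macrophages, measured 80.7 and 80.3 CPM in clone 1 and 946 and 949 CPM in clone 5 of shOgdh346 at day 4, against 21.6 to 35.9 CPM in shOgdh2081. At day 0 the clones held 2.39 and 21.9 CPM with shOgdh346 and 3.28 and 6.18 CPM with shOgdh2081. The shOgdh346 clones differed in level on both days, and the change was higher with shOgdh346 by 2.69 ± 0.22 (SE) on the log2 scale (adjusted p = 0.00571 in edgeR). Wfdc17 had the largest called difference, 3.51 ± 0.30 (adjusted p = 0.00571), with day 0 clone levels of 1.58 and 3.44 CPM for shOgdh346 and 2.73 and 2.13 CPM for shOgdh2081. It passed in all 30 fits that left out a clone or a library, at 3.36 to 3.69. Tgm2, a transglutaminase, measured 91.7 to 161 CPM with shOgdh346 and 37.4 to 56.1 CPM with shOgdh2081 at day 4. At day 0 its clone levels were low, at 0.735 and 0.652 CPM with shOgdh346 and 1.94 and 1.49 CPM with shOgdh2081. Its difference in change was 2.73 ± 0.26 (adjusted p = 0.0116), and part of it rests on the lower day 0 levels of the shOgdh346 clones. Gpnmb passed in 28 of the 30 fits and missed at an adjusted p of 0.0795 without clone 5 of shOgdh2081 and of 0.282 without replicate 1 of clone 3 of shOgdh2081 at day 0. Tgm2 passed in 24, and its adjusted p reached 0.170 without replicate 1 of clone 1 of shOgdh346 at day 0.

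Among the 15 called genes Zbtb16 had the lowest difference in change, -2.02 ± 0.23 (adjusted p = 0.0245 in edgeR). Its day 0 clone levels were 27.2 and 22.7 CPM with shOgdh346 and 21.5 and 19.8 CPM with shOgdh2081, and at day 4 they were 4.70 and 5.82 CPM with shOgdh346 and 16.7 and 19.4 CPM with shOgdh2081. Angpt1, a ligand of the receptor TEK, measured 17.6, 16.7, 4.21 and 5.35 CPM with shOgdh346 and 50.7, 44.2, 42.8 and 40.5 CPM with shOgdh2081 at day 4, with a difference in change of -1.67 ± 0.22 (adjusted p = 0.0309). Cnn3, a calponin, measured 21.1 to 22.4 CPM with shOgdh346 and 64.7 to 69.9 CPM with shOgdh2081, with a difference in change of -1.27 ± 0.15 (adjusted p = 0.0245). For Zbtb16, Angpt1 and Cnn3 the day 4 libraries of the hairpins did not overlap. Rusc2 and Pdgfrb, a receptor tyrosine kinase, also passed at 2.93 and -1.35, and their day 4 libraries overlapped. Rusc2 had clone levels of 0.257 and 0.771 CPM with shOgdh346 and 12.3 and 3.11 CPM with shOgdh2081 at day 0, and at day 4 its log2 difference was -0.91. Pdgfrb had 15.6 and 20.8 CPM in the shOgdh346 clones and 67.8 and 8.19 CPM in the shOgdh2081 clones at day 4, and clone 3 of shOgdh2081 stood apart. Of the 30 fits that left out a clone or a library, Zbtb16 passed in 29, Cnn3 in 28, Rusc2 in 26, Angpt1 in 24 and Pdgfrb in 23. Without clone 5 of shOgdh2081 the adjusted p was 0.0831 for Zbtb16, 0.105 for Angpt1, 0.0687 for Rusc2 and 0.0795 for Pdgfrb. Without clone 3 of shOgdh2081 it was 0.11 for Angpt1, 0.0887 for Rusc2 and 0.138 for Pdgfrb, and without clone 1 of shOgdh346 it was 0.0735 for Cnn3.

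Interferon-stimulated genes and RNA sensors were mostly higher with shOgdh346, and no member passed edgeR's adjusted test, while DESeq2 called 2 higher and voom 1. Such genes are induced through interferon receptors and IRF factors, and a repeat of GAAA marks many of their promoters. Of the 40 listed genes 30 were tested, 9 had an unadjusted p under 0.05 and all 9 were higher, beside 4.22% of all genes. In 13 the shOgdh346 libraries were all above the shOgdh2081 libraries and in 0 below, beside 8.22% above and 8.33% below over all genes. The median log2 difference was 0.39 at day 4 and 0.06 at day 0. Relative to the mean of the control clones, the list's median was 0.35 in clone 1 and 0.70 in clone 5 of shOgdh346, against 0.26 in clone 3 and 0.09 in clone 5 of shOgdh2081.

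Promoters are shown for the members without overlap that hold a motif known from interferon-stimulated genes. The motif GAAANNGAAA was searched on both strands in the 250 bases before the annotated start, in RefSeq sequences of build GRCm38.p6 that matched 31 of the 40 listed genes by symbol. It was present in 16 of those 31 genes (51.6%) and in 936 of 27025 genes overall (3.46%). Of the 13 members whose libraries did not overlap, 9 were matched and 3 held the motif (33.3%). Their 250 bases follow, 5′ to 3′ on the gene's strand, with the motif in capitals as it reads on that strand.
Oas3, chr5:120777660-120777909, minus strand: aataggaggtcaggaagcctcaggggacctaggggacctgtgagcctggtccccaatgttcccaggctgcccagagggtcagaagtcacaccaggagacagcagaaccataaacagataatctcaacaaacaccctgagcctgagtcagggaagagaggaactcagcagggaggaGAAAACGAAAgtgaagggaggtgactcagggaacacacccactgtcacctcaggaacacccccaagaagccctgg
Stat2, chr10:128270248-128270497, plus strand: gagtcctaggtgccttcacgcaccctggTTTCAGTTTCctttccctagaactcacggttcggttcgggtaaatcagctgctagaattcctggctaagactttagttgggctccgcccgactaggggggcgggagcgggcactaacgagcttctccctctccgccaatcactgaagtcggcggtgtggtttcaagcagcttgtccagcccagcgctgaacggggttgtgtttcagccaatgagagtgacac
Trim30a, chr7:104465194-104465443, minus strand: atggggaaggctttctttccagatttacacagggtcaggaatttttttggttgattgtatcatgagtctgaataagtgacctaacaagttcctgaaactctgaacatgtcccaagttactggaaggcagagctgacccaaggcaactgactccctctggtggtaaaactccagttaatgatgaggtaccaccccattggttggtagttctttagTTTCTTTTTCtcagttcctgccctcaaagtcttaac

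Oas3, an oligoadenylate synthetase that senses double-stranded RNA and whose promoter is printed above, measured 11.2, 13.8, 11.04 and 10.6 CPM with shOgdh346 and 2.90, 2.79, 1.75 and 1.66 CPM with shOgdh2081. The control libraries held 0.799 to 1.27 CPM, and the groups did not overlap. Its log2 difference was 2.38 ± 0.37 at day 4 (adjusted p = 0.672 in edgeR) and 1.58 at day 0. Dhx58, the RIG-I-like receptor LGP2, measured 14.7 to 18.6 CPM with shOgdh346 and 9.01 to 12.2 CPM with shOgdh2081, beside 7.79 to 10.4 CPM in the control. For Dhx58 the shOgdh2081 libraries overlapped the control, and the day 0 log2 difference was 0.12. Stat2, a transcription factor of interferon signalling, averaged 62.9 CPM with shOgdh346 and 50.9 CPM with shOgdh2081, and Trim30a averaged 46.95 CPM with shOgdh346 and 36.6 CPM with shOgdh2081. Ifit2, Gbp2, Cxcl10 and Isg15 had log2 differences of -0.24, -0.50, -0.65 and -0.31. Against the control, 8 members rose and 1 fell with shOgdh346, and 1 rose and 1 fell with shOgdh2081. Over all genes 11.3% rose and 11.5% fell with shOgdh346, and 7.04% rose and 6.78% fell with shOgdh2081.

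Of 15 tested genes that process hairpin and microRNA, 0 passed the adjusted test in edgeR, DESeq2 or voom, and the median log2 difference was 0.03. Drosha, the nuclease that makes the initial cleavage, averaged 47.96 CPM with shOgdh346 and 59.3 CPM with shOgdh2081 (log2 difference -0.26, unadjusted p = 0.0311 in edgeR). Ago2, the slicing Argonaute, averaged 282 CPM with shOgdh346 and 285 CPM with shOgdh2081.

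Of 33 tested monocyte and macrophage genes, 13 had an unadjusted p under 0.05 and all 13 were higher with shOgdh346. For 14 genes the shOgdh346 libraries were all above those of shOgdh2081. The shares over all genes were 4.22% higher at that p and 8.22% with libraries all above. None of the 33 passed edgeR's adjusted test. DESeq2 and voom each called 2 higher. The median log2 difference was 1.21, and in bulk RNA fewer cells of a type and less RNA per cell cannot be told apart. Fcgr4, an activating Fc receptor, measured 194, 181, 190.4 and 164 CPM with shOgdh346 and 94.4, 90.9, 134 and 119 CPM with shOgdh2081, beside 19.03 to 25.8 CPM in the control. Csf1r, the receptor for macrophage colony-stimulating factor, measured 84.97 and 87.5 CPM in clone 1 and 197 and 197 CPM in clone 5 of shOgdh346, against 52.5, 56.3, 23.4 and 24.2 CPM with shOgdh2081. The clones of each hairpin differed from each other for Csf1r, and the control libraries (57.3 to 116 CPM) overlapped the range of shOgdh346. The list's median over the control was 0.93 in clone 1 and 1.97 in clone 5 of shOgdh346, and 0.40 in clone 3 and 0.44 in clone 5 of shOgdh2081. Against the control 11 members rose with shOgdh346 and 5 with shOgdh2081, and none fell, where 11.3% and 7.04% of all genes rose.

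Among neutrophil granule and maturation genes, 36 of 38 tested identifiers had a positive log2 difference. In this list 4 had an unadjusted p under 0.05, all higher, and 15 had libraries all above those of shOgdh2081. Of all 13747 genes 6755 were positive, 4.22% were higher at that p and 8.22% had libraries all above. No list member passed edgeR's adjusted test, and DESeq2 called 1 higher and voom 3. The list's median log2 difference was 1.02 at day 4 and 0.25 at day 0. Chil3, a chitinase-like lectin of myeloid cells, measured 1771 and 1602 CPM in clone 1 and 296 and 249 CPM in clone 5 of shOgdh346, against 38.9 to 95.1 CPM in shOgdh2081. Here clone 1 was the higher shOgdh346 clone, whereas clone 5 was the higher one for Csf1r. The alarmin subunit S100a8 averaged 9269.9 CPM with shOgdh346 and 2962 CPM with shOgdh2081. Its partner S100a9 averaged 16061 CPM with shOgdh346 and 5073 CPM with shOgdh2081. Cebpe, a transcription factor of late granulocytes, was the 1 member lower in every library of shOgdh346, at 267 CPM with shOgdh346 and 363 CPM with shOgdh2081. The list's median over the control was 3.81 in clone 1 and 2.41 in clone 5 of shOgdh346, against 1.78 in clone 3 and 2.20 in clone 5 of shOgdh2081. Against the control 26 members rose with shOgdh346 and 11 with shOgdh2081, and none fell, where 11.3% and 7.04% of all genes rose. The 6 leukocyte markers summed to 12453 to 14670 CPM with shOgdh346 and 5713 to 10867 CPM with shOgdh2081. In the control they summed to 2403 to 3214 CPM. By member their log2 differences between the hairpins ran from -0.12 to 1.10 with a median of 0.12. At an unadjusted p under 0.05 in edgeR, 0 of the 6 differed. The part of these markers in these results was not tested.

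Of 31 lysosome and autophagy genes, 6 had an unadjusted p under 0.05, all higher with shOgdh346, at a list median of 0.31. At that p 4.22% of all genes were higher and 3.07% lower. Over the control, the lysosome list's median was 0.32 in clone 1 and 0.98 in clone 5 of shOgdh346. With shOgdh2081 it was 0.40 in clone 3 and 0.20 in clone 5, so the hairpins interleaved. Ctsb, a lysosomal cysteine protease, measured 629.7 and 631 CPM in clone 1 and 2610.2 and 2382 CPM in clone 5 of shOgdh346, against 414 to 448 CPM with shOgdh2081. Clone 5 of shOgdh346 held most of that difference. Of 31 cytokine and growth factor receptors, 6 were higher and 1 was lower at an unadjusted p under 0.05. Their clone medians over the control also interleaved, at 0.39 and 0.51 with shOgdh346 and 0.57 and -0.06 with shOgdh2081. No member of either list passed edgeR's adjusted test. DESeq2 called 0 lysosome genes and 2 receptors higher, and voom called 1 lysosome gene and 2 receptors higher. Tnfrsf1b, a receptor for tumour necrosis factor, measured 350.03, 358, 361 and 368 CPM with shOgdh346 and 265, 268, 235 and 242 CPM with shOgdh2081, beside 88.5 to 111 CPM in the control, and the groups did not overlap.

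ATF4 is the transcription factor of the integrated stress response. Of 34 of its targets, 7 were lower and 1 was higher with shOgdh346 at an unadjusted p under 0.05. The shares over all genes were 3.07% lower and 4.22% higher, and 0 targets passed edgeR's adjusted test. DESeq2 called 2 lower and voom 1. The median log2 difference was -0.32 at day 4 and -0.06 at day 0. Atf5, a related factor, measured 24.7, 27.4, 26.01 and 27.2 CPM with shOgdh346 and 40.3, 43.2, 36.98 and 38.98 CPM with shOgdh2081, and the control libraries were higher than both at 62.7 to 73.9 CPM. Stc2, a secreted stanniocalcin, measured 26.7 to 42.02 CPM with shOgdh346 and 65.7 to 74.3 CPM with shOgdh2081. The groups did not overlap for either gene, at log2 differences of -0.57 ± 0.11 and -1.01 ± 0.21. Against the control 21 members fell and 4 rose with shOgdh346, and 14 fell and 3 rose with shOgdh2081. Of all genes 11.5% fell and 11.3% rose with shOgdh346, and 6.78% fell and 7.04% rose with shOgdh2081.

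Of 25 cholesterol synthesis and uptake genes, 5 were lower and 0 higher with shOgdh346 at an unadjusted p under 0.05. The shares over all genes were 3.07% lower and 4.22% higher. The list's median log2 difference was -0.34 at day 4 and -0.60 at day 0, and no member passed edgeR's adjusted test. DESeq2 called 1 member lower and voom 2. Cyp51, the sterol demethylase of the pathway, measured 68.8, 60.8, 57.3 and 55.3 CPM with shOgdh346 and 126, 120.2, 87.004 and 88.5 CPM with shOgdh2081, beside 133 to 163 CPM in the control. The groups did not overlap, and clone 3 was the higher shOgdh2081 clone. Of 48 G1/S and replication genes 4 were lower and 0 higher at an unadjusted p under 0.05, with a median of -0.20. The median was -0.16 for G2/M genes and -0.18 for MYC targets and ribosome biogenesis. For the G2/M and MYC lists the clone medians over the control interleaved between the hairpins. No member of these 3 lists passed the adjusted test between the hairpins in edgeR, while DESeq2 called 1 gene of the MYC list lower and voom 0. Of their 48, 52 and 48 genes, 44, 39 and 34 fell below the control with shOgdh346, against 40, 27 and 13 with shOgdh2081. The shares over all genes that fell were 11.5% and 6.78%. Gata2, a transcription factor of progenitors, averaged 47.3 CPM with shOgdh346 and 119 CPM with shOgdh2081 at day 4. Its difference in change passed at -1.16 ± 0.14 (adjusted p = 0.0309 in edgeR). From day 0 to day 4 the clones of shOgdh346 went from 68.3 and 85.3 CPM to 37.5 and 57.2 CPM. The control clones went from 79.99 and 71.6 CPM to 57.2 and 39.01 CPM, and overlapped shOgdh346 at day 4. The clones of shOgdh2081 rose from 92.4 and 79.5 CPM to 135 and 104 CPM.

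**Figure D5:**
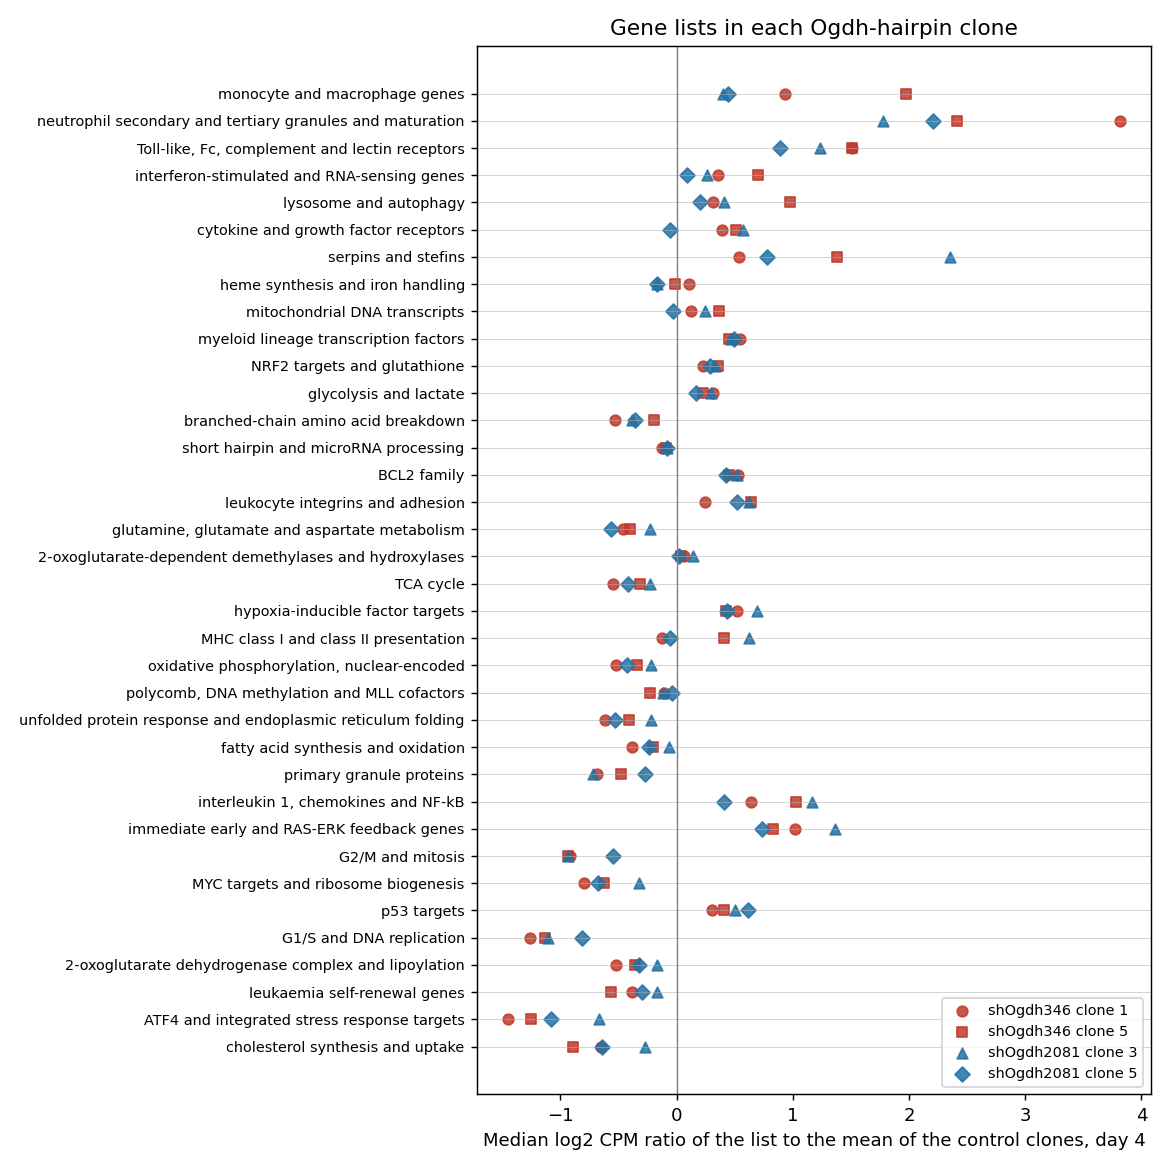
For each gene list, the median log2 ratio of CPM to the mean of the control clones at day 4 in each of the 4 Ogdh-hairpin clones. For monocyte and macrophage genes both shOgdh346 clones (0.93 and 1.97) lie above both shOgdh2081 clones (0.40 and 0.44), while for TCA cycle genes the hairpins interleave.

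Differences between clones of 1 hairpin were tested on libraries, so their p-values describe the spread between libraries only. Of 12906 genes, 2298 were higher (17.8%) and 2564 lower (19.9%) in clone 1 than in clone 5 of shOgdh346. In clone 3 against clone 5 of shOgdh2081, 3163 were higher (24.5%) and 2988 lower (23.2%). Sec16b, a protein of endoplasmic reticulum exit sites, was at 0 in clone 1 of shOgdh346 and in clone 3 of shOgdh2081. It measured 87.01 and 87.9 CPM in clone 5 of shOgdh346 and 137 and 142 CPM in clone 5 of shOgdh2081. Lpl, lipoprotein lipase, measured 0.257 and 0.427 CPM in clone 1 and 247 and 251 CPM in clone 5 of shOgdh346. At day 0 clones 1 and 5 of shOgdh346 held 0 and 32.1 CPM of Sec16b and 0.0368 and 92.3 CPM of Lpl, the same order as at day 4. Retnlg, a resistin-like protein of neutrophils, measured 60.2 and 59.8 CPM in clone 1 and 3.52 and 4.48 CPM in clone 5 of shOgdh346, and the 4 clones held at most 0.213 CPM at day 0.

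Genes of chromosome Y separated the clones within shOgdh2081. Kdm5d, a histone demethylase, measured 91.3 CPM in clone 5 of shOgdh2081 at day 4, Ddx3y, an RNA helicase, 93.8 CPM and Uty, a relative of the demethylase UTX, 47.7 CPM. They were at 0 in both shOgdh346 clones and at no more than 0.07 CPM in clone 3 of shOgdh2081. Over the chromosome, clone 5 of shOgdh2081 had 3743 counts and control clone 2 had 3744, where each other clone had 0 to 3. At day 0 the same clones had 4437 and 3138 counts, so the presence of these transcripts went with the clone and not with the hairpin or the day.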

How the data were processed

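Polyadenylated RNA from 24 RN2 libraries was sequenced on a HiSeq instrument with single-end reads, per the labels' protocols. The authors deposited a table of whole-number counts for 53465 genes under Ensembl mouse identifiers. The submitters' processing notes name the build mm10 (GRCm38) and the tools STAR (2.6.1a), featureCounts (1.6.3), Trimmomatic (0.36) and FastQC (0.11.5). The labels' protocol also names a human build and an RPKM matrix, which the deposited values do not match. The sources used here do not state a strand setting or a rule for multiply mapped reads, so near-identical or overlapping genes are uncertain.

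Library counts were summed within each clone and day, since the clone carries the hairpin. The 6 day 4 sums of 3 hairpins (3 residual degrees of freedom) were filtered with filterByExpr, scaled with TMM and tested with edgeR 4.0.16 in R 4.3.3 by its robust quasi-likelihood test, with Benjamini-Hochberg adjustment over all genes and a threshold of 0.05. Day 0 sums were tested likewise. The difference in change used 12 sums with the clone as a block, and clones of 1 hairpin were compared on libraries. CPM uses TMM-scaled library sizes, set separately for libraries and for clone sums, so a clone's level can lie slightly outside its libraries' values. The labels do not say whether the libraries of a clone are separate cultures. A chi-square per gene of 1.61 to 2.94 between them at day 4, and of 6.78 to 10.3 at day 0, exceeds counting noise, which does not show separate cultures. The code of the day 4 test and of the difference in change was run on simulated data. Its day 4 spread between clones was set below that of these data, so it does not show what the day 4 test could find here. DESeq2 1.42.0, limma 3.58.1 (voom), other scalings and filters, and leaving out each clone or library were tried.

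Genes were named by rule: Ogdh, the 6 of smallest p in each direction at day 4 with at least 5 CPM and no overlap of libraries, 4 per direction for the other contrasts (at least 20 CPM in the higher clone between clones), and up to 4 members of smallest p per list, of which the text gives some whose libraries did not overlap. Other list members, genes of chromosome Y and the remaining genes whose change differed were chosen after their values were seen. The 46 lists hold 1038 symbols, of which 918 were tested. Members and lists were chosen with earlier results of these data known. A count of 0 allows up to 3 counts, for counting error only. The hairpin sequences were not used here, and some list members are not reported here.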

Additional observations from a re-analysis of the deposited data

Results flagged for a closer look

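One of the 38 sets of 4 libraries examined had a library far from the others. Fkbp11, a secretory pathway isomerase, was at 8.63 CPM in a library of clone 5 of shOgdh346, and the other 3 libraries of shOgdh346 lay between 6.92 and 7.21 CPM. Chance alone sets apart about 1 in 20 such sets.

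The change from day 0 to day 4 differed between the Ogdh hairpins in 15 genes (adjusted p under 0.05, edgeR's quasi-likelihood test), given here as the change with shOgdh346 minus that with shOgdh2081 on the log2 scale. Among genes with the higher change with shOgdh346, the difference was 3.51 for Wfdc17, 2.93 for Rusc2, 2.73 for Tgm2 and 2.69 for Gpnmb. It was 2.21 for Dab2, an endocytic adaptor, 1.34 for Samd9l, an interferon-inducible antiviral gene, and 1.17 for both Ets1, a transcription factor, and Sept5. Among those with the lower change it was -2.02 for Zbtb16, -1.67 for Angpt1, -1.35 for Pdgfrb, -1.27 for Cnn3 and -1.16 for Gata2. It was -0.969 for Apobec3, a cytidine deaminase that restricts retroviruses, and -0.864 for Tespa1. Apobec3 held 162 and 162 CPM in the shOgdh346 clones and 75.3 and 67 CPM in the shOgdh2081 clones at day 0. At day 4 the clone levels of Apobec3, Ets1, Samd9l and Dab2 overlapped between the hairpins, as did those of Rusc2 and Pdgfrb. Of the 30 fits that left out a clone or a library, Wfdc17 passed in 30, Zbtb16 in 29, Gpnmb and Cnn3 in 28, Rusc2 in 26, Tgm2 and Angpt1 in 24 and Pdgfrb in 23. The other 7 genes were not followed through these fits.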

How the results depend on the processing

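With 2 clones per hairpin and 3 residual degrees of freedom, the day 4 count depends on the unit taken as replicate and on the tool. It was 0 higher and 0 lower in all fits that left out a clone or a library, with RLE size factors, a stricter filter, no robust dispersions, the 4 Ogdh clones alone or the sums of both days. It was 16 and 11 without the filter, 96 and 56 in DESeq2, 125 and 61 in limma voom, and 733 and 539 with libraries as replicates. The replicate number as a block gave 607 and 455. In the 4 Ogdh clones at day 4, libraries of the same number shared little of their deviations (correlations of -0.01 to 0.06). The control clones were not checked this way. The count with that block is still that of libraries taken as replicates. The day 0 libraries were not checked this way. There replicate 1 had the higher share of mitochondrial counts in every clone. The gap ran from 2.46% against 1.89% in clone 3 of shOgdh2081 to 1.96% against 1.80% in control clone 7. Its part in the counts was not tested. The day 0 counts were 43 and 44 in DESeq2, 373 and 485 without the filter, and 0 to 1 and 0 in the fits that left out a clone or a library. The counts of the difference in change, 8 and 7, were 13 higher with RLE, 271 and 138 without the filter, 75 and 26 in DESeq2, 5 higher without robust dispersions, 35 higher with day 0 replicate 1 alone, 15 higher with day 0 replicate 2 alone and 0 and 0 without the clone block. Leaving out a clone or a library gave 1 to 41 higher and 1 to 18 lower. Between clones of shOgdh346, DESeq2 called 1520 higher and 1679 lower, and leaving out a library gave 1568 to 2331 and 1848 to 2634. The Ogdh difference ran from -0.60 to 0.34 and reversed to 0.09 without clone 1 of shOgdh346 and to 0.34 without clone 3 of shOgdh2081. The cause of these shifts was not tested. DESeq2 and voom each called all 12 genes named at day 4, which had been chosen from the same counts by smallest p and no overlap of libraries.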

Other observations

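At day 0, the median log2 deviation of a chromosome's genes from the median of the 6 clones lay between -0.03 and 0.02 in every clone for every chromosome examined except chromosome 7. For chromosome 7 (726 genes) it was 0.09 in clone 5 of shOgdh2081, -0.05 in clone 3 of shOgdh2081 and -0.03 to 0.01 in the other 4 clones. At day 4 it was 0.05 in clone 5 of shOgdh2081, -0.01 in clone 3 of shOgdh2081 and -0.06 to 0.08 in the other 4 clones, and other chromosomes ran from -0.08 to 0.10. The chromosome was singled out after its values were seen.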
